A study of Mus musculus with 2 samples.

Results

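Adenylyl cyclases are membrane enzymes that make the second messenger cAMP from ATP. In β cells cAMP rises when incretin hormones such as GLP-1 bind their Gs-coupled receptors, and some cyclases also respond to Ca2+. cAMP then acts through protein kinase A, which phosphorylates exocytotic proteins and the transcription factor Creb1, and through the exchange factor Epac2, encoded by Rapgef4, which promotes the release of insulin granules. The list used here was chosen with earlier results of these data known. The binding of Rfx6 was examined at 10 of these genes, given as a list of names rather than by a cutoff on measured values. They were 7 adenylyl cyclase genes (Adcy1, Adcy2, Adcy3, Adcy5, Adcy6, Adcy8 and Adcy9) and 3 genes of the effectors (Prkaca, the catalytic subunit α of protein kinase A, Rapgef4 and Creb1), out of 22367 protein-coding genes of the GENCODE M1 annotation. Every 3HA-Rfx6 peak with its summit inside one of them or within 50 kb of its ends was taken, which gave 49 of the 23308 peaks in the list, and no peak was taken for more than 1 of the genes.

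The peaks came from Min6b1 cells, a mouse β cell line that secretes insulin, transfected with the plasmid pCMV-Tag2A-3HA-Rfx6 and harvested 2 days later. The plasmid supplies Rfx6, a winged-helix transcription factor of islet cells, with an HA tag that the antibody 12CA5 recognises, so the peaks describe the tagged protein made from a plasmid and not the protein of the cells themselves. The control was the same precipitation from Min6b1 cells, although the growth description of the control sample repeats the transfection. There was 1 library of each, no replicate, and therefore no test between conditions, and no value below has a replicate error. The peak list holds no expression values, so the cell type was not checked against markers and no transcript level is given for any of the genes. MACS retained 33949757 reads of the 3HA-Rfx6 library and 3567375 of the control, a ratio of 9.52. For each peak it gave the number of 3HA-Rfx6 reads, the fold enrichment over an expected background, a score (the p-value as minus 10 times its log10) and a false discovery rate (FDR) in percent. Over all peaks the median was 73 reads (range 24 to 3489) and the median fold enrichment was 8.54 (range 2.43 to 95.8). Positions refer to the mouse genome build NCBIM37 (mm9).

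Each of the 10 genes had a summit within 50 kb, as did 67.8% of all protein-coding genes, and each of the 10 had a summit inside the gene, as did 31.3% of all. Rapgef4 had the most summits within 50 kb, with 9, followed by Adcy5 with 7, Adcy2 and Adcy9 with 6 each, Adcy1 with 5, Adcy6 and Prkaca with 4 each, Adcy3 and Adcy8 with 3 each, and Creb1 with 2. The cyclase genes accounted for 34 of the 49 summits and the effector genes for 15. The genes span from 17.6 kb for Adcy6 to 379.5 kb for Adcy2, and a longer gene can hold more summits. Each was therefore set beside the 200 protein-coding genes nearest to it in length. In 9 of the 10 the number of summits was above the median of those genes, and Creb1 was at the median, whereas 40.3% of all protein-coding genes were above the median of their own. The distance of 50 kb reaches neighbouring genes, and 12 of the 21 summits outside the 10 genes were nearest to the coding start of another gene. Counted by summits whose nearest coding start was the gene's own, 8 of the 10 were above the median of genes of similar length, against 34.9% of all protein-coding genes. The exceptions were Adcy1, which equalled the median of 1, and Creb1, with 0 against a median of 1. By summits inside the gene, 7 of the 10 were above the median, against 26.9% of all.

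**Figure D1:**
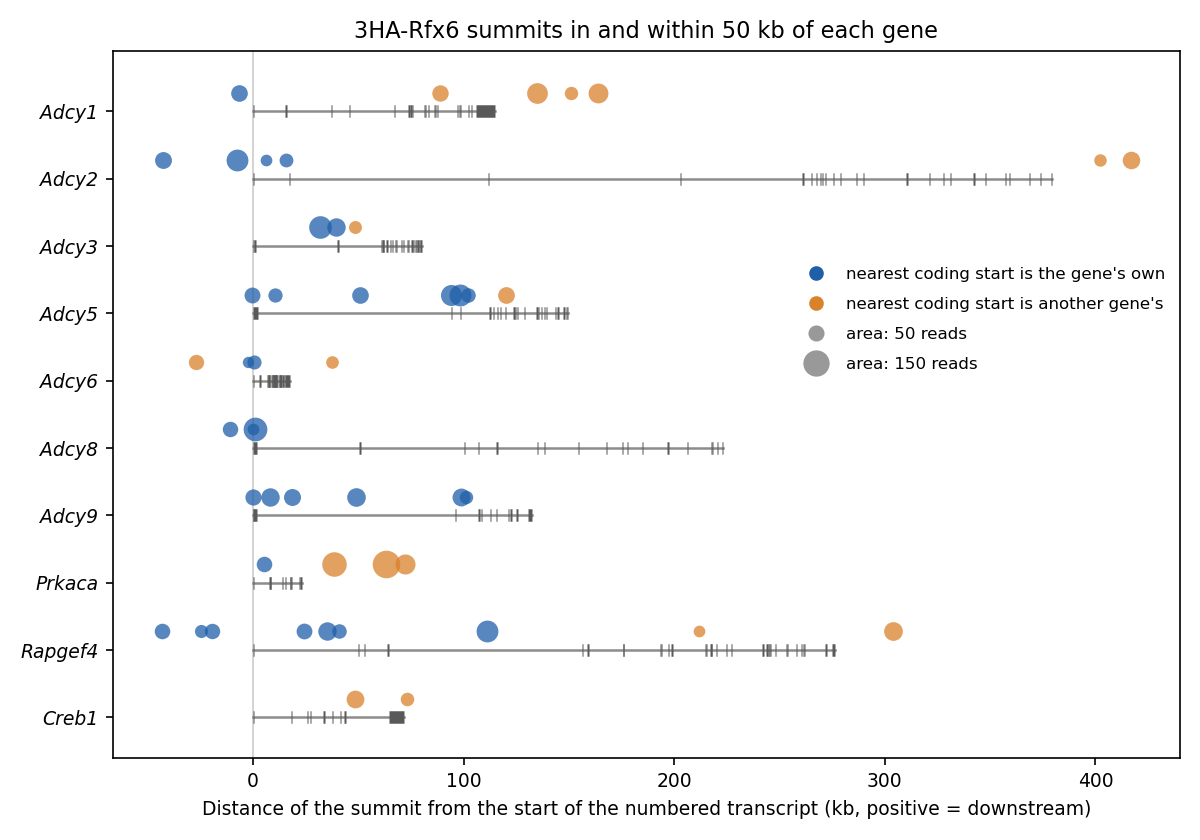
Each circle is a 3HA-Rfx6 summit, plotted by its distance in kb from the start of the transcript used to number exons, with grey bars for exons and circle area for reads. Blue circles are nearest to the gene's own start and orange circles to another gene's start. The summits of Adcy9 lay in its introns 2 and 3 and at its start, whereas all 3 outside Prkaca were nearest to other genes.

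**Figure D2:**
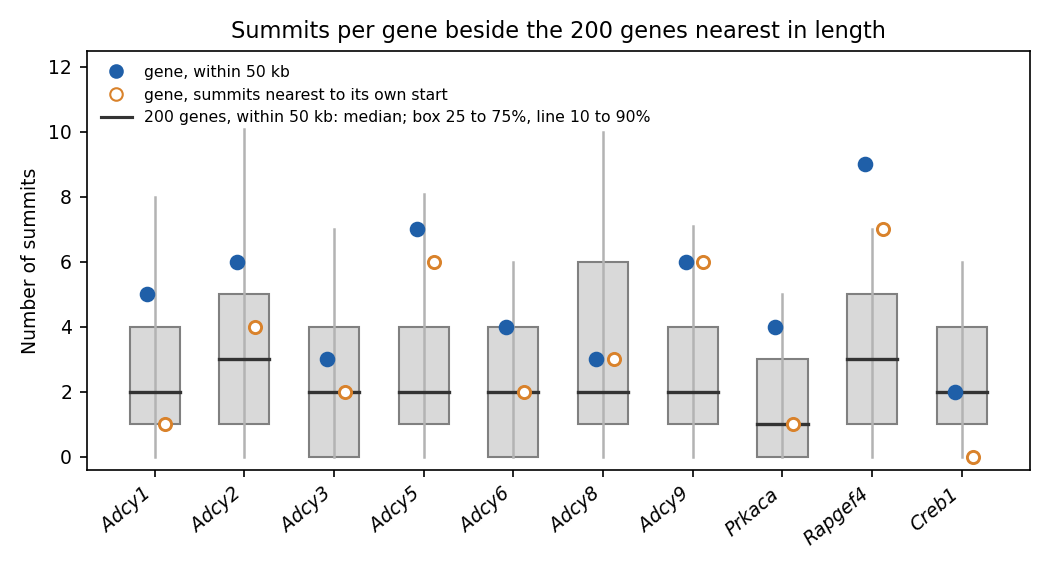
Number of summits at each gene (filled, within 50 kb, and open, those nearest to the gene's own start) beside the number within 50 kb at the 200 protein-coding genes nearest in length (line at the median, box from 25 to 75%, thin line from 10 to 90%). Rapgef4, with 9 summits, lay above the thin line and Creb1, with 2, on the median.

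The peaks at these genes were of middling size. The median was 69 reads (range 33 to 195), and 29 of the 49 held no more than the median of all peaks. The median fold enrichment was 7.53 (range 4.04 to 23.5), the median score 134 (range 50.7 to 669) and the median FDR 2.91% (range 1.76 to 4.74%). The FDR did not order these peaks by score or reads. The lowest, 1.76%, belonged to the Adcy2 peak with the lowest score, 50.7, and 40 reads. The highest, 4.74%, belonged to the Adcy5 peak in exon 2, with a score of 313.4 and 113 reads. A peak needed 183 reads to be among the 10% with the most reads, and 1 of the 10 genes, Prkaca, had such a peak within 50 kb, against 18.5% of all protein-coding genes. That peak, of 195 reads, was inside the neighbouring gene Il27ra. No peak inside any of the 10 genes held more than 144 reads. The 28 summits inside the genes had a median of 70 reads and the 21 outside a median of 65, with overlapping ranges (35 to 144 and 33 to 195). Of the 28, 24 lay in introns, 9 of them in intron 1, and 4 in exons. The same shares over all protein-coding genes were not computed.

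**Figure D3:**
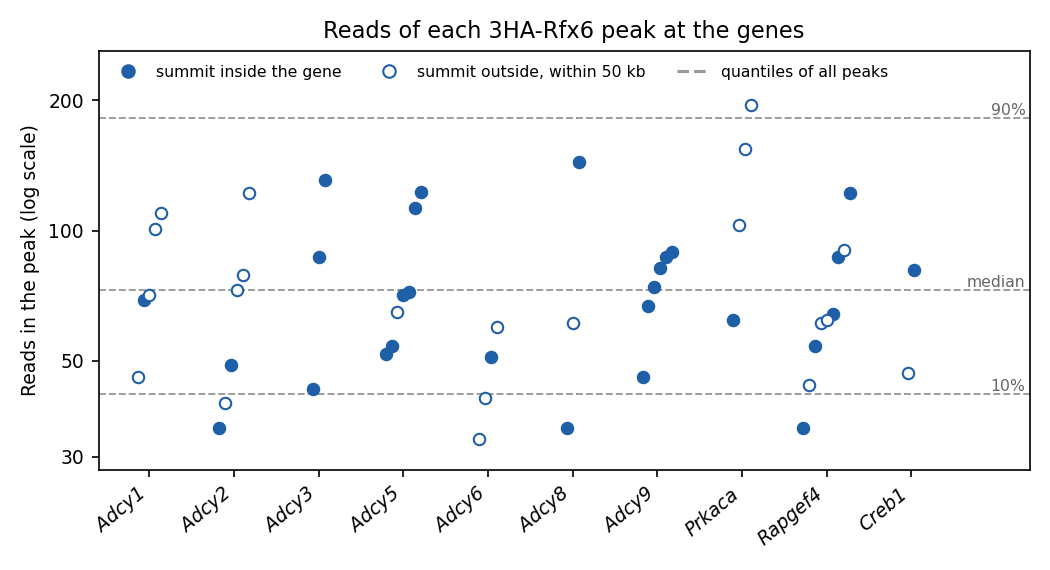
Reads of every peak at the 10 genes on a log axis, filled where the summit was inside the gene and open where it was outside, with dashed lines at 10%, the median and 90% of all peaks. One peak, the 195-read peak near Prkaca, was above the 90% line.

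RFX proteins bind the X-box, in which the arms GTTGCC and GGCAAC stand in inverted order around a short spacer. The strict X-box and the relaxed X-box, which accepts more letters, were searched on both strands of the 200 bp around each summit, with 0 to 3 spacer bases for the strict and 1 to 3 for the relaxed form. The best match to the 12 letters of both arms was recorded as well. A strict X-box was found in 4 of the 49 peaks, or 8.16% (95% Wilson interval 3.22 to 19.2%, which covers counting error only), against 6.42% of all peaks. A relaxed one was found in 21, or 42.9% (30.0 to 56.7%), against 45.9% of all peaks, and a match of at least 10 letters in 7, or 14.3% (7.10 to 26.7%), against 19.8%. By each measure the share at these genes was near that of all peaks, which lay within the interval. In windows of the same length 1 kb to the right of the 49 summits, no strict X-box was found (0%, upper bound 7.27%), and relaxed ones were found in 18.4% (9.98 to 31.4%). Over all peaks such displaced windows held a strict X-box in 0.253% and a relaxed one in 22.8%.

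**Figure D4:**
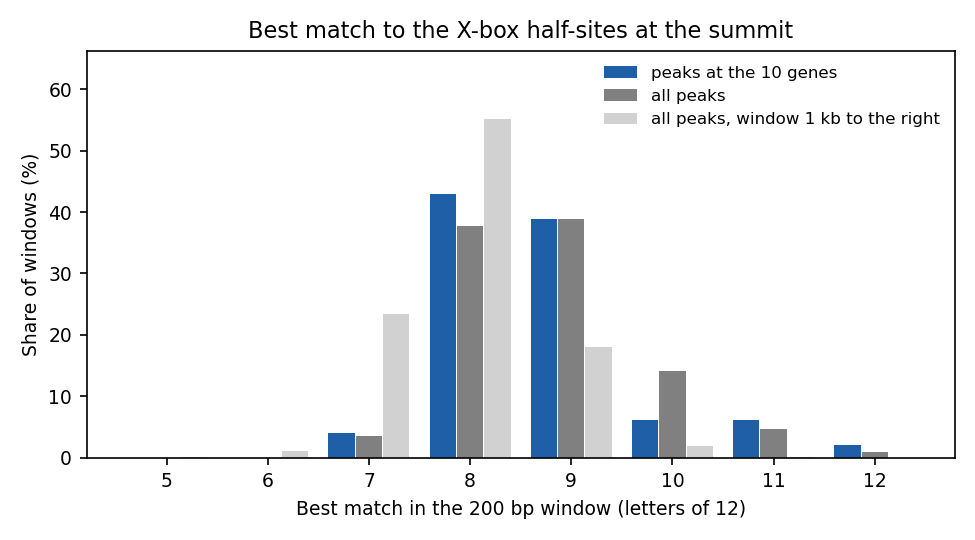
Share of windows of 200 bp, in percent, by the best match to the 12 letters of both X-box arms, for the 49 peaks at the 10 genes, all peaks, and windows 1 kb to the right of all peaks; matches of 5 to 12 letters are drawn. The 49 peaks had matches of 7 to 12 letters, with the larger shares at 8 and 9 letters.

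The 7 matches of at least 10 letters follow with 20 bases on each side, on the strand of the gene, to show how closely the DNA under each summit spelled the X-box. Capitals mark the arms and the spacer between them. All but the Prkaca sequence were chosen for display after their values were seen.
Adcy2, 12 letters, chr13:68736275-68736327, minus strand: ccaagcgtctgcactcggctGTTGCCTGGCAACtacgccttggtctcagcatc
Adcy5 intron 3, 11 letters, chr16:35257068-35257121, plus strand: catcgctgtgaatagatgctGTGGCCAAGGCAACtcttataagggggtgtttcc
Adcy9 intron 3, 11 letters, chr16:4318293-4318346, minus strand: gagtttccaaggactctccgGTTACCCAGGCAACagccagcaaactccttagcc
Rapgef4, 11 letters, chr2:71775877-71775929, plus strand: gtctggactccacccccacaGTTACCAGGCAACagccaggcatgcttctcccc
Adcy5 intron 1, 10 letters, chr16:35205952-35206005, plus strand: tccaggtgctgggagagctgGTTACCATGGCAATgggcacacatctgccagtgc
Prkaca intron 1, 10 letters, chr8:86502256-86502309, plus strand: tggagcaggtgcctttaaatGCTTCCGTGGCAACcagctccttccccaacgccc
Creb1, 10 letters, chr1:64652372-64652424, plus strand: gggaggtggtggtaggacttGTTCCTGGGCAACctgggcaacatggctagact
Of these 7 matches, 6 carried the right arm GGCAAC without change, and only the Adcy2 match carried both arms whole. The first 4 contain a strict X-box. Their peaks were small, with 40 to 62 reads, and 2 of them lay inside a gene of the set and 2 outside. Of the 11 peaks with at least 100 reads at the 10 genes, 0 held a strict X-box and 6 a relaxed one. Over all peaks of any size the shares were 6.42% and 45.9%. The shares among all peaks with at least 100 reads were not computed, and 11 peaks are too few to tell the counts from those shares.

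Adcy1 and Adcy8 encode the cyclases that Ca2+ and calmodulin stimulate. Adcy8 (ENSMUSG00000022376.6) occupies chromosome 15 from 64530604 to 64753858, on the minus strand. Its highest peak held the most reads of any peak inside the 10 genes, 144, and 16.5% of the peaks in the list reached that number. Its fold enrichment of 9.42 and score of 530.4 were below the 23.54 and 585.9 of the Adcy3 peak in intron 2. The summit, at 64752937, lay in the untranslated part of exon 1, 0.921 kb after the start of the gene. A second summit, with 35 reads and a fold enrichment of 6.83, lay in the same exon 0.088 kb after the start, 0.833 kb from the first, so both Adcy8 summits inside the gene were at its 5′ end. No other summit lay in the 223.3 kb of the gene, and the remaining Adcy8 peak, with 61 reads, was 11.0 kb upstream. No strict or relaxed X-box was found at any of the 3. Of the 200 genes of similar length, 49.5% had at least 3 summits within 50 kb and 32.5% had at least 3 nearest to their own start.

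Adcy1 (ENSMUSG00000020431.5; chromosome 11, 6963492 to 7078509, plus strand) differed from Adcy8 in having no summit within 1 kb of its start. Its single summit inside the gene was in intron 14, at 7052369, with 69 reads and a fold enrichment of 7.77. A peak of 71 reads and a fold enrichment of 11.53 was 6.72 kb upstream of the gene and was the only one of the 5 nearest to the Adcy1 start. The other 3 lay downstream, towards a pair of genes of insulin-like growth factor binding proteins. They included the highest Adcy1 peak, with 110 reads and a fold enrichment of 17.42, whose summit at 7098218 was inside Igfbp1, 0.433 kb after its start, and a peak of 46 reads 0.145 kb upstream of Igfbp3. The last, of 101 reads, was 48.7 kb from Adcy1 and so just within the distance used. Genes of similar length had at least 5 summits in 24.5% of cases, but at least 1 summit nearest to their own start in 65.5%.

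Adcy5 and Adcy6 encode the closely related cyclases that Gi proteins and Ca2+ inhibit. Adcy5 (ENSMUSG00000022840.7; chromosome 16, 35154963 to 35305823, plus strand) had 6 summits inside the gene and 1 that was 0.618 kb upstream of its start, the latter with 65 reads and a fold enrichment of 5.39. The highest 2 were neighbours near exon 2. One summit, with 113 reads and a fold enrichment of 9.43, was in coding exon 2 at 35248969, the only summit at the 10 genes that fell in coding sequence. The other, in intron 2 at 35253026, had 123 reads and a fold enrichment of 15.30. Another summit, in intron 3 at 35257052, followed at a distance of 4.03 kb with 54 reads and a fold enrichment of 9.18, and its X-box of 11 letters, printed above, began 36 bp from the summit. The rest were in intron 1 (52 and 71 reads) and intron 8 (72 reads). The summit of 71 reads had the 10-letter match GTTACC and GGCAAT, 48 bp away. Among genes of similar length, 12.0% had at least 7 summits within 50 kb, 9.5% had at least 6 inside the gene, and 8.0% had at least 6 nearest to their own start.

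Adcy6 (ENSMUSG00000022994.8; chromosome 15, 98420425 to 98438064, minus strand) is the shortest of the 10 genes. Its peaks were low, with 41, 51, 33 and 60 reads, all below the median of all peaks. The summit inside the gene, at 98437474 in intron 1, was 0.590 kb after the start and had 51 reads and a fold enrichment of 7.53. A relaxed X-box lay 7 bp from it. The peak of 33 reads, the lowest at any of the 10 genes, was 2.52 kb upstream. The highest Adcy6 peak, of 60 reads and a fold enrichment of 7.30, lay 0.169 kb upstream of a start of Cacnb3, which encodes a β subunit of voltage-gated Ca2+ channels, and the peak of 41 reads was inside Ccnt1. At least 4 summits were found at 27.5% of genes of similar length, and at least 2 nearest to the own start at 15.0%.

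Adcy3 encodes the cyclase known from olfactory signalling and primary cilia. Adcy3 (ENSMUSG00000020654.9; chromosome 12, 4133103 to 4213525, plus strand) had 3 summits, each in an intron. The summit at 4165225 in intron 2 had 131 reads and the highest fold enrichment at any of the 10 genes, 23.54. This number of reads was reached by 19.8% of all peaks and this fold enrichment by 6.85%. Its best match to the X-box arms had 8 letters, but 3 relaxed X-boxes lay in the window, the nearest 3 bp from the summit. It is shown as an example of a high peak with a relaxed but no strict X-box, chosen after its values were seen, with capitals for the relaxed match.
Adcy3 intron 2, chr12:4165208-4165261, plus strand: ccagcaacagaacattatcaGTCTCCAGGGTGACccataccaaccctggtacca
The next summit, also in intron 2 and 7.82 kb away, had 87 reads and a fold enrichment of 11.00, and the last, in intron 3, had 43 reads and a fold enrichment of 4.47. The reads of the 3 were thus lower from the 5′ to the 3′ side. Just beyond the limit of 50 kb, the nearest excluded peak was 50.3 kb from Adcy3, with 114 reads and a fold enrichment of 18.83. For Adcy9, Adcy6, Prkaca and Adcy5 it was at 54.4, 55.9, 56.3 and 57.9 kb, with 136, 51, 155 and 52 reads, and for the other 5 genes it was at 62.1 kb or farther.

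Adcy9 encodes a widely expressed cyclase that is poorly sensitive to the plant compound forskolin. All 6 of its summits (ENSMUSG00000005580.4; chromosome 16, 4287529 to 4420498, minus strand) lay inside the gene and were nearest to its own start. Among genes of similar length, 18.0% had at least 6 within 50 kb, and 7.5% had at least 6 by either of the stricter counts, inside the gene or nearest to the own start. The summit at 4420008, of 67 reads and a fold enrichment of 5.88, was in an untranslated exon 0.200 kb upstream of the start of Adcy9-001, in DNA with 24 CpG dinucleotides in 200 bp, against a median of 3 over all peaks. Intron 2 held 3 summits with 89, 74 and 87 reads. The first, at 4370805, was the highest of the gene, with a fold enrichment of 14.59, and a relaxed X-box lay 16 bp from it. Intron 3 held 2 summits 2.81 kb apart, of 82 and 46 reads. The lower, at 4318319 with a fold enrichment of 7.06, lay within the 11-letter X-box printed above. The Adcy9 reads had a narrow range, from 46 to 89.

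Adcy2 encodes a cyclase that Gβγ subunits stimulate together with Gs. Adcy2 (ENSMUSG00000021536.7; chromosome 13, 68758920 to 69138419, minus strand) is the longest of the 10 and had 2 summits inside, both in intron 1, with 49 and 35 reads. The highest peak was outside, 7.60 kb upstream of the gene at 69146016, with 122 reads and a fold enrichment of 21.19, which 9.04% of all peaks equalled or exceeded. A further peak of 73 reads was 42.5 kb upstream. Downstream, the peak with the only complete X-box, all 12 letters, had 40 reads and a fold enrichment of 5.61. The summit of this peak, at 68736279, lay 22.6 kb from Adcy2 and 0.037 kb before 1700001L19Rik begins. The last, of 79 reads, was inside Fastkd3. By summits nearest to the own start, Adcy2 had 4, and 25.5% of genes of similar length had as many.

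Among the effectors, Rapgef4 (ENSMUSG00000049044.9; chromosome 2, 71819272 to 72095531, plus strand) had the most summits within 50 kb, 9, of which 5 were inside and 7 were nearest to its own start. Of the genes of similar length, 8.5% had at least 9 summits within 50 kb, 8.5% at least 7 nearest to their own start and 19.5% at least 5 inside. Its first place depended on the distance, since within 10 kb Rapgef4 had 5 summits against 7 at Adcy5 and 6 at Adcy9, and within 100 kb it had 9 against 12 at Prkaca. Intron 1 held 3 summits with 64, 87 and 54 reads, 10.9 and 5.79 kb apart. The highest peak was in intron 4, at 71930388, with 122 reads and a fold enrichment of 15.72, and a low peak of 35 reads was in intron 12. Upstream of the gene were 3 more, with 62, 44 and 61 reads. The first of these, 43.4 kb upstream at 71775882 with a fold enrichment of 9.21, had the 11-letter X-box printed above 15 bp from its summit. None of the Rapgef4 summits was within 1 kb of a start of the gene, and the peak of 90 reads downstream was 0.026 kb from the start of B230120H23Rik.

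Prkaca (ENSMUSG00000005469.8; chromosome 8, 86496877 to 86520344, plus strand) had 1 summit inside the gene, at 86502277 in intron 1 and 1.30 kb after the start of the transcript Prkaca-202. It had 62 reads and a fold enrichment of 6.83, and the summit lay within a 10-letter match, GCTTCC and GGCAAC. The 3 summits downstream were higher, with 154, 195 and 103 reads, but each was nearest to another gene. They were 0.159 kb after the start of 2210011C24Rik, inside Il27ra, and 0.014 kb upstream of Rln3, at 14.8, 39.9 and 48.5 kb from Prkaca. The Il27ra peak had a fold enrichment of 14.97, and 8.62% of the peaks in the list had 195 reads or more.

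Creb1 (ENSMUSG00000025958.7; chromosome 1, 64579378 to 64651121, plus strand) had the fewest summits within 50 kb, 2, whereas within 10 kb Prkaca had 1 and Creb1 still 2. The one inside the gene, at 64627978 in intron 8, had 81 reads but a score of 57.0 and a fold enrichment of 7.18. The Adcy9 peak of 82 reads in intron 3 had a score of 219.6 and a fold enrichment of 11.68, so the 2 peaks of nearly equal reads differed in how far they rose above their backgrounds. The other Creb1 summit was 1.25 kb downstream of the gene, with 47 reads, a fold enrichment of 6.59 and the 10-letter match shown above. Both were nearest to a start of Mettl21a, although 35.8 and 11.4 kb from it. As many summits were found at 60.0% of genes of similar length.

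Summits within 1 kb of a start of a protein-coding transcript were found at 4 of the 10 genes, Adcy5, Adcy6, Adcy8 and Adcy9, all cyclases. Such summits were also found at 22.6% of all protein-coding genes and at 38.2% of the 34 other pathway genes treated below. The 5 peaks at the starts of the 4 genes (Adcy8 had 2) had 65, 51, 144, 35 and 67 reads. None of the 5 had a match of more than 9 letters to the X-box arms, and 19.8% of all peaks had a match of at least 10 letters. With 5 peaks the count cannot be told from that share.

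The other genes of the pathway included the remaining cyclases, G protein α subunits, regulatory and catalytic subunits of protein kinase A, anchoring proteins and phosphodiesterases. With Rapgef3, the transcription factors Crem and Atf1 and the transcriptional cofactors, they made a list of 34. Of these, 31 (91.2%) had a summit within 50 kb, against 67.8% of all protein-coding genes, and 23 (67.6%) had one inside, against 31.3%. More summits than the median of genes of similar length were found at 19 (55.9%), against 40.3%. A summit lay within 1 kb of a start at 13 (38.2%), against 22.6%. A peak among the 10% with the most reads was found at 10 (29.4%), against 18.5%. Of these counts, only that against genes of similar length takes account of gene length. The median number of summits within 50 kb was 4.5 over the 10 genes, 3.5 over the 34 and 1 over all protein-coding genes. These 3 medians take no account of gene length. For each of the 10, the median of genes of similar length was 1 to 3. The 4 genes of the 34 with the most summits within 50 kb each had more than any of the 10. Gnaz, which encodes an inhibitory G protein subunit, had 20, of which 8 were inside, and 0% of the genes of its length had as many. The phosphodiesterase gene Pde10a had 15, with 12 inside. Rapgef3, which encodes Epac1, had 13, with 5 inside, and the phosphodiesterase gene Pde4c had 10, with 1 inside. By summits inside, Rapgef3 and Pde4c thus had fewer than Adcy5 and Adcy9, with 6 each. For the 34 genes the gene with the nearest start was not determined, so summits outside can be nearest to neighbouring genes. The highest peak within 50 kb had 279 reads at Gnaz, 301 at Rapgef3 and 695, with a fold enrichment of 71.32, at Pde4c, each above the 195 reads near Prkaca, and 147 at Pde10a. No summit was found within 50 kb of Crem, Gnai1 or Pde1c. Of the remaining cyclases, Adcy4 had 4 summits within 50 kb (1 inside), Adcy7 had 2 (1 inside) and Adcy10 had 1 (0 inside). The median of genes of similar length was 2 for each, and 29.0%, 59.0% and 82.0% of those genes had as many. Only Adcy4 was thus above the median, whereas all 7 cyclases of the set were above theirs.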

How the data were processed

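Anti-HA ChIP-seq was deposited for 1 library of 3HA-Rfx6 transfected Min6b1 cells and 1 control. Per the labels, CASAVA 1.8.2, Bowtie and MACS 1.4.2 were used with the mm9 genome, and the file header gives reads of 50 bases, totals of 49443917 and 16911298 reads, at most 1 read kept per position, a fragment size of 234 bp and a p-value cutoff of 1e-05. The deposited values of each peak are the count of reads, not normalized, the fold enrichment (a ratio to the background), the score (the p-value as minus 10 times its log10) and the FDR in percent. The background rests on 3567375 control reads. The list holds peaks of 24 reads or more.

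Summits (start plus summit offset minus 1) were placed on GENCODE M1 genes. Genes of similar length were the 200 protein-coding genes nearest in length. The X-box was searched in NCBIM37 within 100 bp of each summit, on both strands. No test was made, since neither condition has a replicate, and counts were set beside the same counts over all genes or peaks. The genes and lists were chosen with earlier results of these data known. All 10 genes are named, with their highest peaks, the peaks within 1 kb of a start and the peaks with a strict X-box. Of the 34 other genes, the 4 with the most summits and those with none are named. The remaining cyclases among the 34 were added after their values were seen. The other peaks, and the genes beside them, were named after their values were seen. A second, shorter annotation entry of Pde4d was left out. Alternatives were stricter peak sets, other distances, other numbers of similar genes, other rankings and a window of 100 bp. The count of summits nearest to the own start was added after seeing the data. The scripts ran under Python 3.11.15 with matplotlib 3.10.9, scipy 1.17.1, pandas 2.3.3 and numpy 2.4.6. On simulated data the summit count was right for 300 of 300 genes, and 400 of 400 planted X-boxes were found.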

Additional observations from a re-analysis of the deposited data

How the results depend on the processing

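No paired analysis was possible because each condition had 1 library and the result comes from no test. The alternatives were computed for the 10 genes and their peaks, and the medians of genes of similar length were recounted each time. Shares over all protein-coding genes were recomputed only for counts of summits inside the gene (26.9%) and nearest to the own start (34.9%). For the other changes below, no share over all genes or all peaks was computed. With the 50% of peaks with the highest scores (11654 peaks), the genes with a summit inside fell from 10 to 5, the summits from 49 to 21, the genes with a summit within 1 kb of a start from 4 to 1, and the share of peaks with a strict X-box from 8.16 to 0%. With a fold enrichment of at least 10 (9223 peaks), 4 genes had a summit inside, 16 summits remained, 5 genes exceeded the median of genes of similar length in place of 9, 0 had a summit at a start, and the strict X-box share was 0%. The share of 8.16% rested on 4 of 49 peaks, so the loss of few peaks brings it to 0%. An FDR of at most 1% leaves 10 peaks, of which 0 were near these genes, so that each count of genes and summits was 0 and no X-box share could be given. Because the FDR did not follow score or reads at these genes, this cutoff does not show that their peaks were weak. Ranked by fold enrichment, 2 genes had a peak among the highest 10%, Adcy2 and Adcy3, and Prkaca, the 1 gene by reads, did not. Ranked by score, 0 genes had such a peak. The relaxed X-box share was 28.6% in place of 42.9% in windows of 100 bp. In the other 20 alternatives for these totals and shares the counts stayed within 1.5 times, and the shares within the interval, of the values reported. Among these the number of genes above the median of genes of similar length was 7 to 9. The number of summits at a single gene was less stable, and moved by over 1.5 times in 32 of 50 alternatives. With the 50% of highest scores, Rapgef4 had 3 in place of 9, Adcy5 3 in place of 7, and Adcy6 and Creb1 0, whereas Adcy9 had 4 in place of 6. With a fold enrichment of at least 10, Rapgef4 and Adcy9 had 4 each, Adcy5 1, and Adcy6, Adcy8 and Creb1 0. Within 10 kb, Prkaca had 1 in place of 4 and Rapgef4 5, and within 100 kb Prkaca had 12 and Adcy6 8 in place of 4. The effect of sequencing depth on the list was not tested.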
